A study of Mus musculus with 23 samples.

Results

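The 7 genes described here encode the inhibitors of cyclin-dependent kinases (CDKs): Cdkn2a, Cdkn2b, Cdkn2c and Cdkn2d of the INK4 family, and Cdkn1a, Cdkn1b and Cdkn1c of the CIP/KIP family. They were chosen by name, and all 7 were present among the 32285 genes of each of the 11 gene expression matrices. The cells were mouse bone marrow KSL cells (c-Kit+, Sca1+, lineage-), the sorted fraction that holds haematopoietic stem cells and multipotent progenitors. Single-cell RNA libraries were made with the 10x Chromium 3′ v3.1 kit in 2 experiments, and every group, Control included, was labelled Mx1-Cre, a Cre transgene under an interferon-inducible promoter that is active beyond blood cells. The baseline experiment used untransplanted mice of 2 months, with 1 male (replicate 1) and 1 female (replicate 2) library for each of Control, Ezh2 KO (floxed Ezh2) and Jarid2 KO (floxed Jarid2), and 6 surface proteins were counted in the same cells with barcoded antibodies. The transplant experiment used CD45.2 donor KSL cells taken from lethally irradiated recipients 18 weeks after they had received 500000 donor and 500000 CD45.1 competitor marrow cells, with 1 Control, 2 Ezh2 KO and 2 Jarid2 KO libraries. The study asked how loss of Ezh2, the catalytic subunit of Polycomb repressive complex 2 (PRC2), differs from loss of Jarid2, a PRC2 cofactor.

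INK4 proteins bind the kinases CDK4 and CDK6 and keep them from pairing with D-type cyclins, whereas CIP/KIP proteins bind assembled cyclin-CDK complexes, CDK2 complexes above all. Cdkn2a makes 2 unrelated proteins from alternative first exons: p16Ink4a, which keeps RB active, and Arf, which holds back MDM2 and so stabilises p53. The locus is a classical target of PRC2 and its H3K27me3 mark, it is silent in most young tissues, and both products act as brakes on self-renewal and on the transformation of B cell precursors. Because the libraries read the 3′ end of transcripts, which both Cdkn2a products share, the counts below do not separate p16Ink4a from Arf.

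Cdkn2a (4:89274473-89294619, GRCm38.p6) and Cdkn2b (4:89306289-89311032) lie next to each other on the minus strand of chromosome 4. The 3 promoter windows of this pair are shown because the largest differences were in these 2 genes. Each runs from 250 bases before to 50 bases after a RefSeq transcript start, 5′ to 3′ along the gene, and capitals mark GGGCGG or its reverse complement CCGCCC, the core of the GC box read by Sp1-type factors. The Cdkn2a starts are 12427 bases apart, and the upstream one is 16413 bases from the Cdkn2b start.
Cdkn2a, upstream start (Arf first exon), chr4:89294570-89294869: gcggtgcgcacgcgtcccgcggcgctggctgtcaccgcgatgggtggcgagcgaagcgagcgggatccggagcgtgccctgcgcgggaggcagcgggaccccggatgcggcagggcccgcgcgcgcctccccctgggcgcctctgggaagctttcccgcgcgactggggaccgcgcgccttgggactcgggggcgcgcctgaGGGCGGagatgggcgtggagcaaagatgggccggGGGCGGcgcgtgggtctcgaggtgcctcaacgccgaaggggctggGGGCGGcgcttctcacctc
Cdkn2a, downstream start (p16Ink4a first exon), chr4:89282143-89282442: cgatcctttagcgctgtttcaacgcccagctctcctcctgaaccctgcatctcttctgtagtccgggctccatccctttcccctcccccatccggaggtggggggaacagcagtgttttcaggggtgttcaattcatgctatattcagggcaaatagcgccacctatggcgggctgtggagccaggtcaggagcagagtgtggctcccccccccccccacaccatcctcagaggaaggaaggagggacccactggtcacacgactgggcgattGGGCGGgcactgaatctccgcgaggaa
Cdkn2b, chr4:89310983-89311282: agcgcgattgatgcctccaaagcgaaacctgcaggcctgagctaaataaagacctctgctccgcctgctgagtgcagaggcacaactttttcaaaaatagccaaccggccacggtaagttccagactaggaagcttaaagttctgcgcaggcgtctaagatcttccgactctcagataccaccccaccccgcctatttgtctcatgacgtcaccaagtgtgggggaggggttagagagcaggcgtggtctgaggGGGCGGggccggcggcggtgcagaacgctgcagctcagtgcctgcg
The upstream Cdkn2a window holds 3 matches and 45 CG dinucleotides, against 1 match and 12 CG in the downstream window and 1 match and 18 CG in that of Cdkn2b. Of 32851 RefSeq promoter windows of the same length, 35.7% hold at least 1 match, and the median number of CG is 7. RefSeq windows were found for 6 of the 7 genes, at 9 starts. Cdkn1c was not matched.

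After filtering, 73310 cells were kept (4354 to 9208 per library), with 67629053 to 126527222 UMIs (unique molecular identifiers, each standing for 1 captured transcript) per library and medians of 10764 to 17611 UMIs per cell. Levels are given as CPM, a gene's UMIs scaled to the same total in every library. Ezh2 was lower in every library labelled Ezh2 KO: 163 and 148 CPM against 209 and 193 CPM in Control at baseline (log2 fold change -0.33 ± 0.06 SE, adjusted p = 0.0599), and 38.8 and 47.0 CPM against 185 CPM after transplantation (log2 -2.19 ± 0.13, adjusted p = 0.000832). Jarid2 was not lower in the libraries labelled Jarid2 KO: they held 215 and 205 CPM against 159 and 150 CPM at baseline, and 57.3 and 57.1 CPM against 38.5 CPM after transplantation. A 3′ tag outside the deleted exons does not check a deletion, and the exons removed are not named in the labels, so directions for Jarid2 KO below rest on the label. Barcodes shared between 2 libraries numbered 31 at most (up to 0.392% of the smaller library). In the transplant experiment, 48.3% to 59.4% of the cells in the Control and Jarid2 KO libraries held Xist and no Y-linked UMI, against 0.0163% and 0.0511% in the Ezh2 KO libraries. Those Control and Jarid2 KO libraries therefore mixed cells of both sexes, and sex cannot be told apart from the Ezh2 genotype there except by keeping male cells alone. The summed level of 13 stem cell markers was 1821 to 2645 CPM at baseline and 680 to 830 CPM after transplantation, with none of them at 0. The file headers name Cell Ranger 7.2.0 at baseline and 6.1.2 for transplant. A difference in level between the experiments cannot be told apart from that difference in counting. Barcodes above the 10% limit on mitochondrial UMIs made up 2.82% to 5.82% of the baseline libraries and 25.7% to 43.4% of the transplant libraries.

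Cdkn2a was near absent in Control and Jarid2 KO cells and present in every Ezh2 KO library. At baseline it stood at 0.203 and 0.153 CPM in Control, at 9.51 and 9.35 CPM in Ezh2 KO, and at 0.132 and 0.0830 CPM in Jarid2 KO. After transplantation the Control library held no Cdkn2a UMI, the Ezh2 KO libraries held 3.70 and 2.98 CPM, and the Jarid2 KO libraries 0.0108 and 0.0467 CPM, from 1 and 4 UMIs. The Ezh2 KO libraries did not overlap with any other library. By group, the order was baseline Ezh2 KO (9.43 ± 0.11 CPM, SD, n = 2), transplant Ezh2 KO (3.34 ± 0.51, n = 2), baseline Control (0.178 ± 0.035, n = 2), baseline Jarid2 KO (0.108 ± 0.035, n = 2), transplant Jarid2 KO (0.029 ± 0.025, n = 2) and transplant Control (0, n = 1). The 2 baseline groups next to each other in that order, Control and Jarid2 KO, did not pass the test (log2 -0.70 ± 0.27, adjusted p = 0.487). Levels were not tested across experiments, whose matrices were made with different Cell Ranger versions by their file headers.

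In the fit across all genes (edgeR's quasi-likelihood test, Benjamini-Hochberg adjustment, called at 0.05), Cdkn2a rose in Ezh2 KO at baseline by a log2 fold of 5.78 ± 0.18 (adjusted p = 0.00302), a ratio of means of 53.1. The call held when any 1 library was left out and without the sex term. After transplantation it also passed (adjusted p = 0.00238). With 0 of 67629053 UMIs in the Control library, a floor of 3 UMIs corresponds to 0.0444 CPM, so the Ezh2 KO libraries were at least 83.5-fold and 67.1-fold higher. With male cells alone, the adjusted p after transplantation was 0.0541, at a fitted log2 difference of 9.93 ± 1.83 against 11.17 ± 0.89 with all kept cells. Both fitted values depend on the prior count, since Control was at 0. Over all kept transplant cells the Ezh2 KO libraries held 413 and 240 Cdkn2a UMIs, and the Jarid2 KO libraries 1 and 4. The transplant test thus rests on Ezh2 KO counts set against 1 Control library at 0. A single Cdkn2a UMI was present in the transplant Control barcodes that the cell filter had removed (0.0111 CPM over all deposited barcodes).

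**Figure D1:**
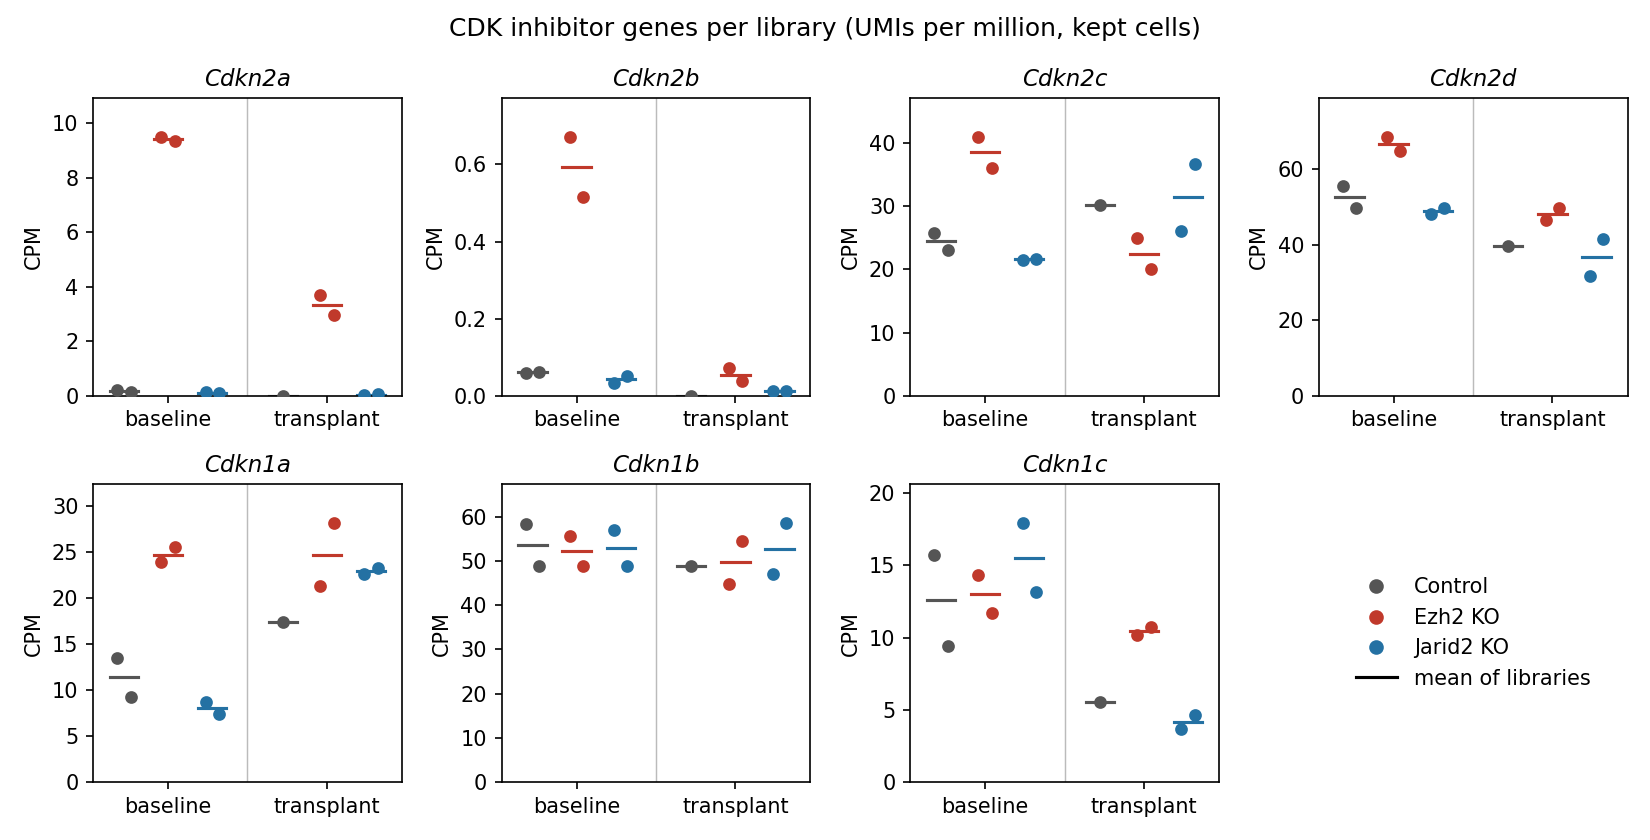
Level of each CDK inhibitor gene per library, in CPM (linear axis from 0) for the baseline and transplant experiments. Points are libraries, horizontal lines are means of 1 or 2 libraries, and colours are Control, Ezh2 KO and Jarid2 KO. Cdkn2a stands between 2.98 and 9.51 CPM in the 4 Ezh2 KO libraries and at 0.203 CPM or below in the other 7.

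Cdkn2b, the p15Ink4b gene next door, followed at a far smaller count. Baseline Ezh2 KO libraries held 0.672 and 0.517 CPM (85 and 59 UMIs), against 0.0596 and 0.0611 CPM in Control (5 and 6 UMIs) and 0.0331 and 0.0519 CPM in Jarid2 KO (3 and 5 UMIs). The Ezh2 KO libraries lay above all others, with a log2 fold change of 3.31 ± 0.36 (adjusted p = 0.0280). The call was lost without Control replicate 1, Control replicate 2 or Ezh2 KO replicate 1 (adjusted p = 0.0664, 0.0662 and 0.0994) and without the sex term (0.0600). After transplantation every library held 8 Cdkn2b UMIs or fewer, and the gene did not pass the count filter. RefSeq places a long noncoding RNA gene, Gm12610 (4:89295180-89518621), across the same interval. Gm12610 was counted in a row of its own. How the counting used strand is not given in the sources used here, so how reads in the overlap were shared between these rows is not known.

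Cdkn2c (p18Ink4c) and Cdkn2d (p19Ink4d), the other INK4 genes, were read in all libraries, and both stood higher in baseline Ezh2 KO. Cdkn2c was at 25.7 and 23.2 CPM in baseline Control, 41.0 and 36.1 CPM in Ezh2 KO and 21.5 and 21.7 CPM in Jarid2 KO, without overlap between Ezh2 KO and the rest. It rose by a log2 fold of 0.70 ± 0.07 (adjusted p = 0.0228), a call that was lost without Ezh2 KO replicate 1 (0.0604) or the sex term (0.0674). After transplantation Cdkn2c stood at 30.2 CPM in Control, 24.9 and 20.0 CPM in Ezh2 KO and 26.1 and 36.8 CPM in Jarid2 KO, and no contrast passed. Ezh2 KO was the lowest group there and the highest at baseline.

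Cdkn2d was at 55.4 and 49.7 CPM in baseline Control, 68.5 and 64.9 CPM in Ezh2 KO and 48.2 and 49.6 CPM in Jarid2 KO. Ezh2 KO was again above every other baseline library, by a log2 fold of 0.39 ± 0.06 (adjusted p = 0.0404). The call did not survive the loss of any 1 Control or Ezh2 KO library (adjusted p from 0.0622 to 0.128) or of the sex term (0.107). After transplantation it stood at 39.6 CPM in Control, 46.6 and 49.7 CPM in Ezh2 KO and 31.8 and 41.5 CPM in Jarid2 KO, with a log2 difference of 0.20 ± 0.13 between Ezh2 KO and Control (adjusted p = 0.532).

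Among the CIP/KIP genes, Cdkn1a (p21, a direct p53 target) was higher in baseline Ezh2 KO. It stood at 13.5 and 9.30 CPM in Control, 23.9 and 25.6 CPM in Ezh2 KO and 8.71 and 7.44 CPM in Jarid2 KO, with a log2 fold change of 1.18 ± 0.14 against Control (adjusted p = 0.0310, or 0.0900 without the sex term). After transplantation it was at 17.4 CPM in Control, 21.3 and 28.2 CPM in Ezh2 KO and 22.7 and 23.3 CPM in Jarid2 KO. The transplant groups lay closer together, and the Ezh2 KO difference of 0.42 ± 0.16 did not pass (adjusted p = 0.249).

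Cdkn1c (p57), which is known for its high level in quiescent stem cells, was called in whole libraries after transplantation and was not called at baseline; the test of the difference between the experiments did not pass (0.74 ± 0.36, adjusted p = 0.609). At baseline it stood at 15.7 and 9.43 CPM in Control, 14.3 and 11.7 CPM in Ezh2 KO and 17.9 and 13.2 CPM in Jarid2 KO, so that the groups overlapped. After transplantation it was at 5.53 CPM in Control, 10.2 and 10.7 CPM in Ezh2 KO and 3.68 and 4.64 CPM in Jarid2 KO, without overlap between Ezh2 KO and the rest. It rose in transplant Ezh2 KO by a log2 fold of 0.83 ± 0.14 (adjusted p = 0.0256). This call was lost without either Ezh2 KO library (0.0606 and 0.0676), with a stricter cell filter (0.0993), and with male cells alone (log2 0.48 ± 0.20, adjusted p = 0.341). Cdkn1b (p27) lay between 44.7 and 58.6 CPM in all 11 libraries, and its groups overlapped in both experiments. The log2 difference between Ezh2 KO and Control was 0.01 ± 0.04 at baseline (adjusted p = 0.906) and -0.06 ± 0.14 after transplantation (adjusted p = 0.886).

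In all, 5 of 7 genes were called at baseline between Ezh2 KO and Control, each higher in Ezh2 KO, where 3.47% of 18177 genes tested were called. After transplantation 2 of the 6 that passed the count filter were called, both higher, where 4.84% of 15758 genes were. Cdkn2a after transplantation (413 and 240 UMIs in Ezh2 KO, 4 or fewer elsewhere) passed that filter only through the Ezh2 KO libraries. So did Cdkn2b at baseline (85 and 59 UMIs, 6 or fewer elsewhere). Their calls follow in part from the filter and are not separate support in these counts. In whole-library sums a change in the number of cells of a type and a change in RNA per cell cannot be told apart. The summed level of 13 B lineage marker genes was 3794 and 2168 CPM in baseline Ezh2 KO against 1811 and 760 CPM in Control, and 833 and 656 CPM against 139 CPM after transplantation. Of those markers, 4 of 13 rose in baseline Ezh2 KO and 12 of 13 in transplant Ezh2 KO. Their part in the whole-library values was not tested, and values within cell classes follow below.

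The lists of genes around the inhibitors, chosen with earlier results of these data known, were counted in the same edgeR fits. Between baseline Ezh2 KO and Control, 4 of 24 p53 targets rose, led by Phlda3 (log2 1.31 ± 0.10, adjusted p = 0.0195) and Cdkn1a, with a median of 0.26 against -0.0043 over all genes, of which 3.47% were called. Of 20 proliferation genes 5 rose, among them Rrm2, a nucleotide reductase subunit (0.75 ± 0.10), and Birc5, which encodes survivin (0.64 ± 0.08), of 12 CDK and cyclin genes Ccna2 (0.68 ± 0.10) and Cdk1 (0.55 ± 0.07), and of 13 RB and E2F genes E2f2 (0.97 ± 0.11) and E2f7 (0.43 ± 0.07). In the same contrast 4 of 13 B lineage markers rose, and their part in these counts was not tested. None of the p53 target, proliferation, CDK and cyclin or RB and E2F lists had a gene that fell, and none of the 6 ARF and p53 axis genes or of 10 senescence-associated genes passed. Except for Phlda3, each named gene of these lists lost its call without the sex term (adjusted p from 0.0765 to 0.213) and without Ezh2 KO replicate 1 (Cdkn1a kept it in the latter case). After transplantation, where 4.84% of all genes were called, 4 of 24 p53 targets rose, Phlda3 (0.86 ± 0.16) and Btg2 (0.63 ± 0.10) among them, 1 of 13 RB and E2F genes rose (E2f5, under the 5 CPM set for named genes and named after its value had been seen), and none of the proliferation or CDK and cyclin genes passed. The Phlda3 and Btg2 calls were lost without either Ezh2 KO library (adjusted p from 0.0542 to 0.106). Both calls were also lost with a stricter cell filter (log2 0.87 ± 0.19 and 0.54 ± 0.14), and that of Btg2 with male cells alone (0.56 ± 0.12). None of the genes in these lists was called between Jarid2 KO and Control in either experiment.

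Between Jarid2 KO and Control, edgeR called 0 of 7 genes at baseline (0.033% of all genes were called) and 0 of 6 after transplantation (0.336%). At an unadjusted p under 0.05 there were 2 at baseline, Cdkn1a (log2 -0.46 ± 0.15) and Cdkn1c (0.35 ± 0.11), and 1 after transplantation, Cdkn1c (-0.47 ± 0.14), and DESeq2 called none in either experiment. Estimates at baseline ran from -0.70 (Cdkn2a) to 0.35 (Cdkn1c). After transplantation Cdkn2a held 0 UMIs in Control and 1 and 4 in Jarid2 KO, too few for this contrast to say much about it. Between the 2 knockouts, 5 of 7 genes were lower in Jarid2 KO at baseline (5.91% of all genes called), Cdkn2a by a log2 fold of -6.47 ± 0.19, although without Jarid2 KO replicate 1 only Cdkn2a was called. After transplantation Cdkn2a (-6.80 ± 0.40, adjusted p = 0.000412) and Cdkn1c (-1.30) were lower in Jarid2 KO (12% of all genes called). These contrasts share their Ezh2 KO libraries with the comparisons above.

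A single fit over all 11 libraries asked whether a genotype difference itself differed between the experiments. For Ezh2 KO against Control, edgeR called 0 of 7 genes (0.349% of 18938 genes called), with 3 at an unadjusted p under 0.05 and 1 called by DESeq2. The nearest was Cdkn2c, whose difference was lower by 1.20 ± 0.23 log2 units after transplantation than at baseline (adjusted p = 0.0912). For Jarid2 KO against Control it was 0 of 7 (2 unadjusted, 0 with DESeq2), where 0% of genes were called. For Jarid2 KO against Ezh2 KO, 3 of 7 differed (2.46% of all genes): Cdkn2c by 1.36 ± 0.21 (adjusted p = 0.0171), Cdkn1a by 1.58 ± 0.23 (0.0149) and Cdkn1c by -1.53 ± 0.32 (0.0493). Cdkn2c and Cdkn1a were lower in Jarid2 KO than in Ezh2 KO only at baseline by the calls above, and Cdkn1c only after transplantation. Leaving out 1 library at a time left between 0 and 3 of the 7 called: Cdkn1c was lost without any 1 knockout library, Cdkn2c without baseline Ezh2 KO replicate 1, either baseline Jarid2 KO library or transplant Jarid2 KO replicate 2, and Cdkn1a without 5 of the 8 knockout libraries, at adjusted p of 0.0506 to 0.163.

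Cdkn2a UMIs came from a minority of Ezh2 KO cells. At least 1 UMI was found in 578 of 8735 (6.62%) and 485 of 9208 (5.27%) baseline cells and in 206 of 6149 (3.35%) and 126 of 5867 (2.15%) transplant cells. Control and Jarid2 KO libraries held 16, 15, 11 and 8 such cells at baseline and 0, 1 and 2 after transplantation. The 0 of 4354 cells in the transplant Control library allows a share of up to 0.0689% (3 counts of the total), for counting error only. With every cell thinned to 5000 UMIs, the Ezh2 KO shares were 3.65%, 3.05%, 1.84% and 1.42%, and the baseline Control shares 0.0627% and 0.0671%. A single UMI was all that 46.4% to 55.6% of the positive cells held, and the highest count was 12.

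At baseline nearly all positive cells were in the class with B lineage markers (Cd79a, Cd79b and Ebf1 among them). Classes came from clusters of Control cells, made without the 7 genes, and cells of the other genotypes were assigned to them by their nearest neighbours. In the B lineage-like class, 557 of 1835 Ezh2 KO cells (30.4%, exact 95% interval 28.3% to 32.5%) and 468 of 1081 (43.3%, 40.3% to 46.3%) were positive, which was 96.4% and 96.5% of all positive cells. Outside it the shares were 0.304% and 0.209%. Thinned to 5000 UMIs, the shares in the class were 20.1% and 31.8%. In the same class 10 of 428 and 2 of 169 Control cells and 2 of 206 and 2 of 221 Jarid2 KO cells were positive, so the Ezh2 KO share was above the others within the class as well as in the library. In droplet data free RNA can give a UMI to a cell that does not express the gene. Megakaryocyte-like cells of the same libraries held a Cdkn2a UMI in 0.741% and 0.946%, at medians of 18433.5 and 14741 UMIs per cell, and HSC-like cells in 0.336% and 0.147%, at 10178 and 8484.5, against 11423 and 9806 in the B lineage-like class. Shares as low as these are therefore not read as expression. The class also took a larger share of the Ezh2 KO libraries, 21.0% and 11.7%, against 6.37% and 2.15% in Control and 2.83% and 3.14% in Jarid2 KO.

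**Figure D2:**
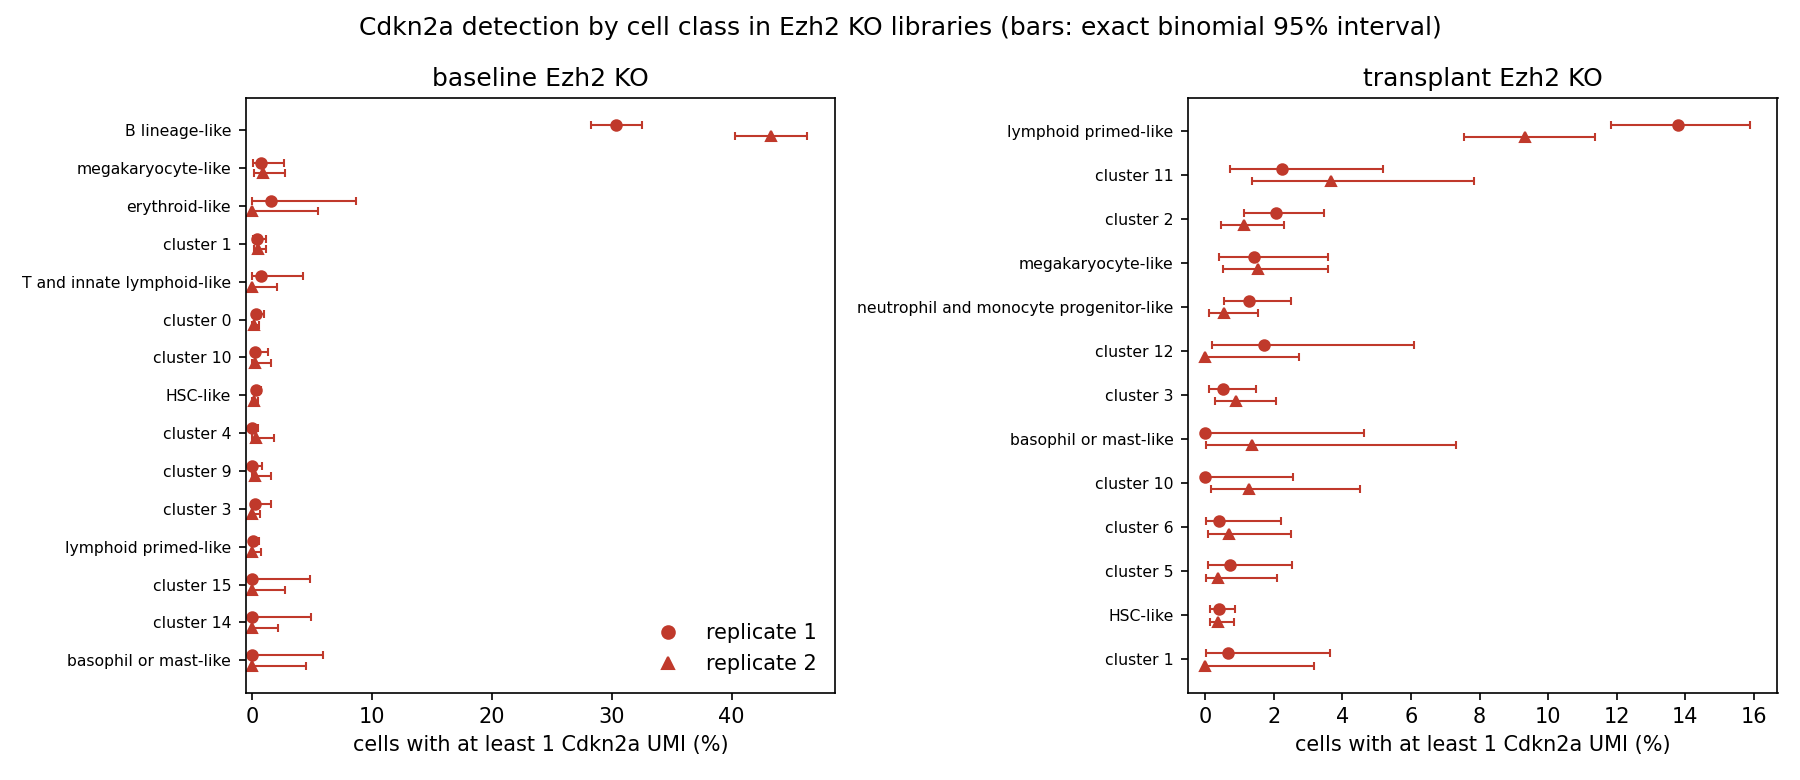
Share of cells with at least 1 Cdkn2a UMI (percent, linear axis) in each cell class of the Ezh2 KO libraries (classes without a name by cluster number), for replicates 1 and 2 with exact binomial 95% intervals, the experiments in separate panels whose axes differ in range. At baseline the B lineage-like class stands at 30.4% and 43.3%, and after transplantation the lymphoid primed-like class is highest, at 13.8% and 9.33%.

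After transplantation the Control library held only 7 cells with 6 or more of the 13 B lineage markers, and no class of its own formed for them. The positive Ezh2 KO cells were assigned mostly to the lymphoid primed-like class, with 160 of 1161 (13.8%) and 88 of 943 (9.33%), or 77.7% and 69.8% of the positive cells. The next highest share was in cluster 11 (led by Hist1h1b, Hist1h1a and Irf8), with 2.25% and 3.68% at medians of 33855 and 26552 UMIs per cell, against 1.41% and 1.55% in megakaryocyte-like cells at 12835 and 9986 UMIs. Within the lymphoid primed-like class, positive cells held a median of 12 of the 13 B lineage markers in both libraries, against 3 in cells without a Cdkn2a UMI.

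Markers per cell were counted by the same rule in both experiments. The Cell Ranger version and the depth of the cells differed between the experiments, so the marker numbers are not on exactly the same scale. Among Ezh2 KO cells with 6 or more of the 13 markers, 560 of 1944 (28.8%) and 469 of 1152 (40.7%) were positive at baseline, and 173 of 451 (38.4%) and 95 of 331 (28.7%) after transplantation. Their Cdkn2a level was 46.4, 83.0, 58.3 and 55.9 CPM. These cells held 96.9% and 96.7% of the positive cells at baseline and 84.0% and 75.4% after transplantation. Among cells with as many markers, 2.16% and 1.93% were positive in baseline Control and 1.58% and 1.03% in baseline Jarid2 KO, and none of 47 and 60 cells in transplant Jarid2 KO, which allows shares of up to 6.38% and 5% (3 counts of the total). In Ezh2 KO cells with 3 to 5 markers the share was 0.464% or lower in each of the 4 libraries. In both experiments the share was thus low in cells with 3 to 5 markers and high in the group with 6 to 13. Where within that group it rose was not examined.

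**Figure D3:**
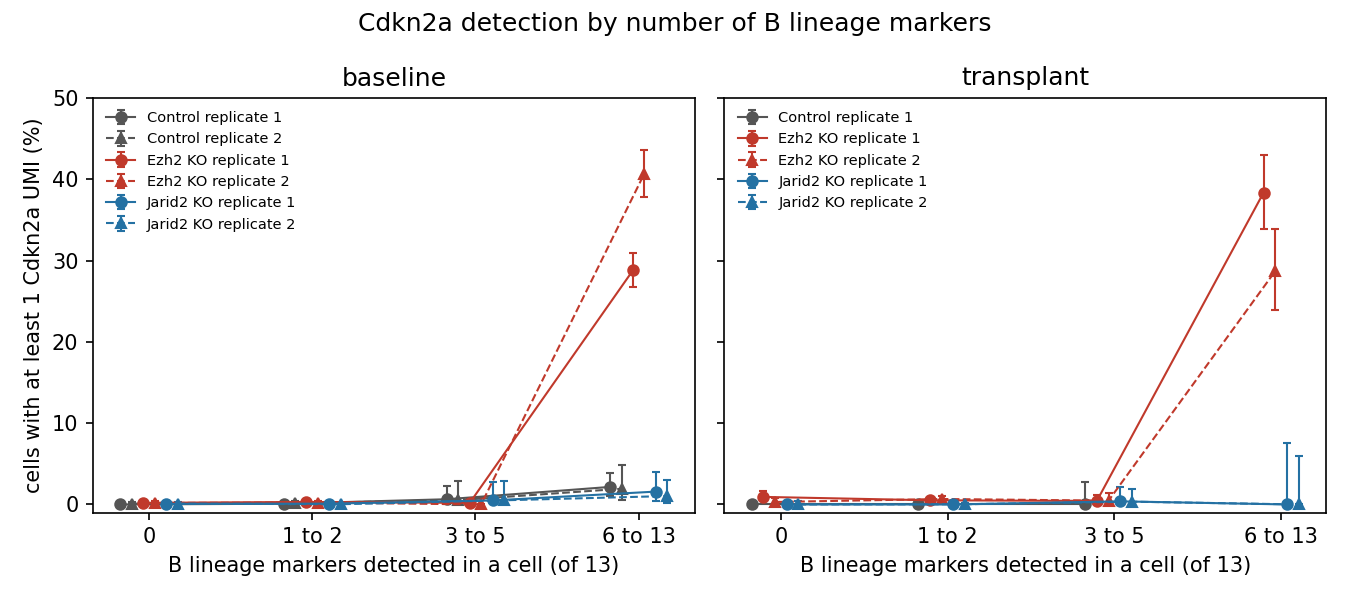
Share of cells with at least 1 Cdkn2a UMI (percent, linear axis) by the number of 13 B lineage markers detected in the cell, per library, with exact binomial 95% intervals. The 4 Ezh2 KO libraries lie between 28.7% and 40.7% at 6 to 13 markers and near 0 below. Control and Jarid2 KO libraries stay at 2.16% or less. The transplant Control library has too few such cells (7) to be drawn there.

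Within baseline B lineage-like cells, the other inhibitors differed between genotypes too. Of 7 genes, 5 were higher in Ezh2 KO than in Control, where 9.34% of 11537 genes were called in that class. Cdkn2a stood at 49.9 and 90.0 CPM against 1.89 and 1.12 CPM (log2 5.18 ± 0.24, adjusted p = 5.78e-08). Cdkn2b stood at 3.38 and 4.81 CPM against 0.172 and 1.12 CPM (3.22 ± 0.64, adjusted p = 0.00671). Cdkn1c, which did not differ in whole libraries, stood at 18.3 and 21.8 CPM in Ezh2 KO, 5.66 and 2.81 CPM in Control and 2.26 and 2.30 CPM in Jarid2 KO (2.05 ± 0.24, adjusted p = 0.000116). Cdkn1a (0.74 ± 0.17, adjusted p = 0.0157) and Cdkn2c (0.42 ± 0.10, adjusted p = 0.0134) also rose.

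Cdkn2d, called in whole libraries, did not pass within the B lineage-like class: 173 and 187 CPM in Ezh2 KO against 166 and 190 CPM in Control (0.09 ± 0.09, adjusted p = 0.593). It passed in none of the 12 baseline classes tested against Control (1.61% of all gene and class pairs were called). In every baseline library Cdkn2d was higher in this class than in the HSC-like class (173 and 187 against 50.2 and 53.8 CPM in Ezh2 KO). Outside this class there were 2 further calls at baseline. Cdkn2c rose in lymphoid primed-like cells (16.3 and 14.8 against 8.88 and 7.29 CPM, log2 0.95 ± 0.19, adjusted p = 0.0492, where 0.814% of genes were called), a call lost at a lower clustering resolution (0.46 ± 0.16, adjusted p = 0.274). Cdkn1a rose in cluster 0, whose leading genes include Ung and Hells (14.2 and 17.7 against 10.4 and 10.8 CPM, log2 0.61 ± 0.12, adjusted p = 0.0437, 1.28% of genes called). In HSC-like cells Cdkn1c stood at 43.6 and 35.9 CPM in Ezh2 KO and at 42.1 and 36.0 CPM in Control, and none of the 5 genes tested passed at baseline (1.09% of genes called). At an unadjusted p under 0.05 there were 3 of them: Cdkn2c, Cdkn1b and Cdkn2d.

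After transplantation Cdkn2a rose in lymphoid primed-like cells (20.2 and 17.7 against 0 CPM, adjusted p = 0.00197, 3.33% of genes called). Cdkn1c rose in the same class (10.7 and 10.6 against 1.01 CPM, adjusted p = 0.0276), where the only Control library held 201 cells. The B lineage cells of Ezh2 KO are part of this class: Cdkn1c stood at 38.5 and 54.4 CPM in its Cdkn2a positive cells, with their median of 12 B lineage markers, and at 6.46 and 6.36 CPM in the rest. The part of these cells in the difference was not tested. With another random seed for the clustering the Cdkn1c call was lost (adjusted p = 0.0667). Cdkn2d (0.80 ± 0.18, adjusted p = 0.0598) did not pass in this class but did at a higher clustering resolution (0.90 ± 0.17, adjusted p = 0.0276). Cdkn2c fell in transplant HSC-like cells (17.3 and 15.5 against 32.3 CPM, log2 -1.02 ± 0.16, adjusted p = 0.0171, 2.33% of genes called). The Control value in these transplant tests is that of 1 library, which is assumed to vary like the libraries of the other groups. Male cells alone were not tested within classes, so sex cannot be told apart from the Ezh2 genotype in these calls. None of its 201 lymphoid primed-like cells held a Cdkn2a UMI, which allows a share of up to 1.49% (3 counts of the total). In Ezh2 KO the shares were 13.8% and 9.33%, and the Cdkn2a test rests on those cells. All classes are drawn from the same libraries, so agreement between classes is not independent. In transplant Ezh2 KO, Cdkn1c was above Control in 9 of 9 classes tested, by 0.021 to 3.32 on the log2 scale, with that 1 call. Cdkn2c was below Control in 12 of 13, with that 1 call, and above it in lymphoid primed-like cells (0.41 ± 0.28, adjusted p = 0.562), a sign that turned at a lower clustering resolution (-0.11) and with another seed (-0.033). Over all genes and classes 1.16% of pairs were called.

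None of the 7 genes was called between Jarid2 KO and Control in any class by edgeR, at baseline (0 of 60 gene and class pairs, 14 at an unadjusted p under 0.05, 0.758% of all pairs called) or after transplantation (0 of 62, 6 unadjusted, 0.0834%). The nearest among named classes was Cdkn2c in baseline HSC-like cells (-0.59 ± 0.13, adjusted p = 0.0646). It was called lower there with another clustering seed (-0.71 ± 0.13, adjusted p = 0.0446).

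The cells with Cdkn2a UMIs were then compared with the other cells of the same Ezh2 KO library, as 2 sums per library. All 6 other inhibitors were higher in the positive cells, where 43.3% of 16962 genes were called and where the B lineage markers were higher too (13 of 13, Vpreb3 by 4.26 ± 0.32 and Igll1 by 4.23 ± 0.31, genes of the surrogate light chain of the pre-B receptor). The comparison was therefore repeated among cells with 6 or more B lineage markers, an alternative chosen after the data had been seen. There 19.4% of 12144 genes were called, and the 6 inhibitors were higher again.

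Among those cells, Cdkn1c stood at 29.0, 31.6, 42.2 and 50.2 CPM in positive cells of the 2 baseline and 2 transplant libraries. In negative cells it stood at 11.7, 11.6, 16.8 and 10.5 CPM (log2 1.47 ± 0.13, adjusted p = 5.35e-07). Cdkn1a stood at 99.7, 180, 119 and 227 CPM against 65.4, 96.2, 74.4 and 88.3 CPM (0.86 ± 0.09, adjusted p = 2.99e-06). For both genes each library moved the same way, and all positive sums lay above all negative sums. Cdkn2c (0.77 ± 0.10), Cdkn2d (0.87 ± 0.10) and Cdkn1b (0.26 ± 0.07, adjusted p = 0.0120) were likewise higher in 4 of 4 libraries. Cdkn2b was higher in 3 of 4 (5.41, 6.06, 2.41 and 0 against 2.22, 3.27, 0.501 and 0.751 CPM, log2 1.14 ± 0.31, adjusted p = 0.0135). Its UMIs in positive cells numbered 43, 34, 6 and 0, so the transplant values rest on few molecules. Ezh2 itself did not pass (0.04 ± 0.09, adjusted p = 0.826).

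**Figure D4:**
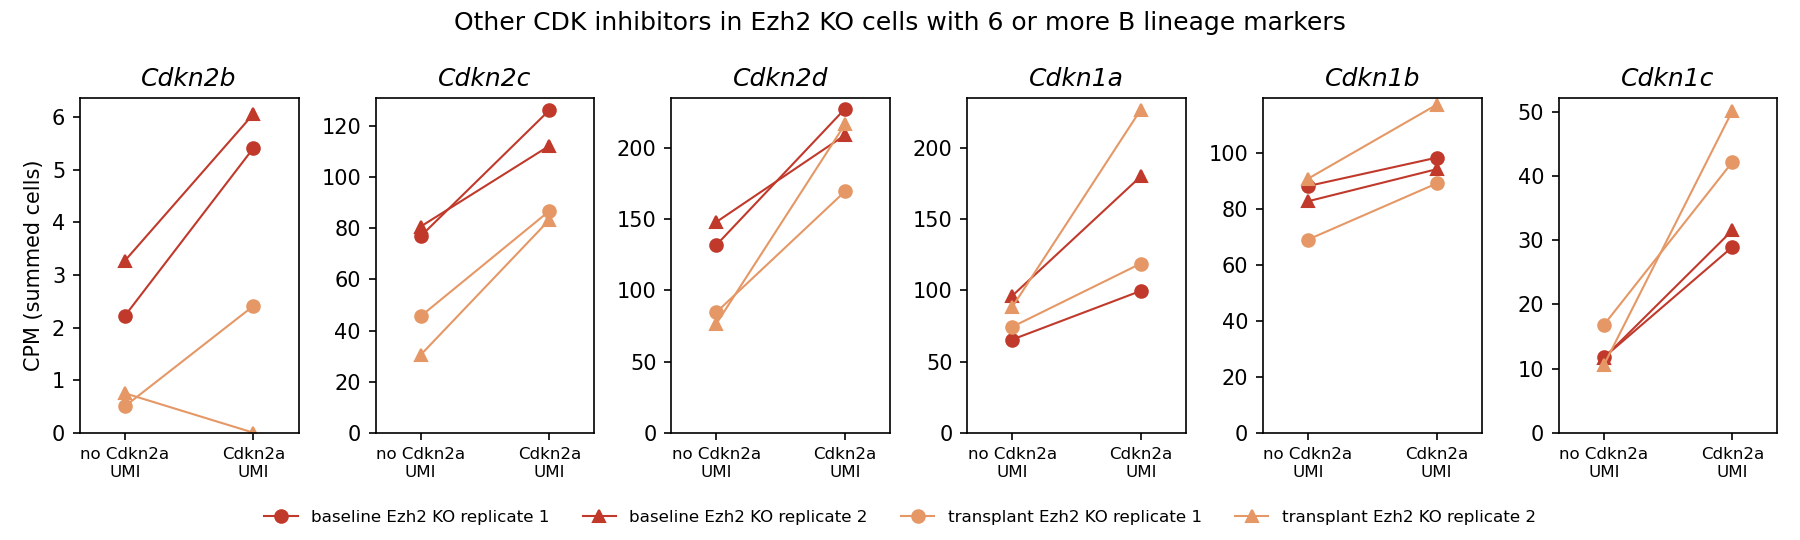
Level of the 6 other inhibitors (CPM of summed cells, linear axes from 0) in Ezh2 KO cells with 6 or more B lineage markers, without and with a Cdkn2a UMI; lines join the 2 sums of each of the 4 libraries. For Cdkn2c, Cdkn2d, Cdkn1a, Cdkn1b and Cdkn1c all 4 lines rise. Cdkn2b falls to 0 in transplant replicate 2.

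Cell depth moved with this split. Positive cells with 6 or more markers held medians of 13376.5 and 11333 UMIs at baseline against 10745 and 8419 UMIs in negative ones. After transplantation the medians were 14214 and 10911 against 12857.5 and 9738.5 UMIs. Genes of other cell types differed too, in both directions. Of 4 erythroid markers tested 2 were higher and 1 lower in the positive cells, and of 4 megakaryocyte markers 1 was higher and none lower. Cd74, an antigen presentation gene of B and dendritic cells, was lower in the positive cells (-3.41 ± 0.20), and so were 6 of 8 dendritic markers, where 19.4% of all genes were called. Their median log2 difference was -1.90, against -0.056 in the baseline B lineage-like class, where 3 of 6 were lower. Cells with 6 or more markers may thus include cells of other types. Jchain was lower as well (-5.51 ± 0.68), by the baseline libraries (154 and 13.2 against 1765 and 4943 CPM), since after transplantation it stood at 0 against 0.501 and 0.376 CPM. The part of cells of other types, and that of depth among cells with 6 or more markers, was not tested. Over all kept cells, with each cell thinned to 5000 UMIs and split by the UMIs left, the 6 other inhibitors were again called higher, among 5632 of 14920 genes called (7352 of 16962 without thinning). Within the baseline B lineage-like class, Cdkn2c (0.52), Cdkn2d (0.55), Cdkn1a (0.69), Cdkn1c (1.26) and Cdkn2b (0.92 ± 0.28, adjusted p = 0.0119) were still called higher, where 13% of genes were called. Cdkn1b (0.13 ± 0.07, adjusted p = 0.211) was not, and Ezh2 was lower in the positive cells of this class (-0.26 ± 0.05, adjusted p = 9.27e-07). In the transplant lymphoid primed-like class, where 43.6% of genes were called and B lineage markers differed as well (13 of 13 higher), Cdkn2c (2.13), Cdkn2d (2.19), Cdkn1a (1.71), Cdkn1b (0.72) and Cdkn1c (2.83) were higher in positive cells. Ezh2 was higher in the positive cells of that class (1.29 ± 0.12, adjusted p = 1.92e-26) and over all kept cells (0.91 ± 0.11, adjusted p = 0.000136). In a joint fit of both classes, 4 of 12888 genes were called (0.031%), none of them among the 7. The log2 differences there were 1.28 ± 0.56 for Cdkn2b, 1.26 ± 0.36 for Cdkn2c, 1.33 ± 0.37 for Cdkn2d, 1.19 ± 0.24 for Cdkn1a, 0.40 ± 0.14 for Cdkn1b and 1.98 ± 0.35 for Cdkn1c (adjusted p from 0.227 to 0.281). Over all kept cells the fitted differences for Cdkn2c, Cdkn2d, Cdkn1a and Cdkn1b were larger at baseline than after transplantation by the test of that difference (18.8% of genes called). That fit scales the sums, and in CPM the ratios of Cdkn2c and Cdkn1a overlapped between the experiments. Among cells with 6 or more B lineage markers the CPM ratios of Cdkn2c and Cdkn2d were larger in both transplant libraries than in both baseline libraries, which was not tested.

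Genes downstream of the 2 Cdkn2a products were counted in lists drawn up with earlier results of these data known. Of 24 p53 target genes, 22 were tested in cells with 6 or more B lineage markers; 11 were higher, Cdkn1a among them, and 1 (Xpc, a DNA repair gene, -0.95 ± 0.11) lower in positive cells, with a median log2 difference of 0.58 against -0.02 over all genes, of which 19.4% were called. Phlda3, an inhibitor of AKT, stood at 45.7, 80.9, 58.7 and 77.6 CPM in positive cells against 14.97, 19.6, 20.0 and 18.4 CPM (1.81 ± 0.10). Zmat3 (1.76 ± 0.13), Bbc3, which encodes the death inducer PUMA (1.57 ± 0.13), Pmaip1, which encodes NOXA (1.38 ± 0.18), and Ccng1 (1.29 ± 0.09) followed. Of the 6 genes of the ARF and p53 axis itself, none was higher and Npm1, a nucleolar partner of Arf, was lower (-0.19 ± 0.06, adjusted p = 0.0369). In the baseline B lineage-like class, where 13% of genes were called, 14 of the 23 p53 targets tested were higher and 2 lower. In the joint fit of that class and the transplant lymphoid primed-like class, 1 of 23 passed (0.031% of genes called), with a median of 0.71.

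Cell cycle genes moved in both directions in the positive cells. Of 20 proliferation genes, 13 were higher and none lower (Cdc20 0.64 ± 0.06, Birc5 0.63 ± 0.07, Tyms 0.62 ± 0.08), with a median of 0.41, where 19.4% of all genes were called. Within the baseline B lineage-like class 10 of the 20 were higher and none lower, where 13% of all genes were called. Of 12 CDK and cyclin genes 6 were higher, among them Ccne1 (0.62 ± 0.09), Ccna2 (0.62 ± 0.09) and Ccnb1 (0.60 ± 0.08). The 3 that were lower were Ccnd1 (-0.74 ± 0.19), Ccnd2 (-0.71 ± 0.07) and Cdk6 (-0.55 ± 0.09), whose protein is a target of the INK4 family. The other D-type cyclin gene, Ccnd3 (0.18 ± 0.07, adjusted p = 0.0819), and the other INK4 target kinase gene, Cdk4 (0.04 ± 0.06, adjusted p = 0.734), did not pass. Xpc, Cdk6, Ccnd3 and Cdk4 fall outside the rule for named genes and were named after their values had been seen. Of 13 RB and E2F genes 6 were higher and none lower, E2f7 by 0.52 ± 0.10 and Rb1 by 0.38 ± 0.12. Within the baseline B lineage-like class 3 of these 13 were higher and 1 lower, and of the 12 CDK and cyclin genes 5 were higher and 2 lower. In the joint fit of both classes (0.031% of genes called) no proliferation, CDK and cyclin or RB and E2F gene was called. The list medians there were 0.82, 0.82 and 0.20. Of 16 senescence-associated genes 3 were tested, and 1, Lmnb1, a lamin lost from senescent cells, was higher (0.48 ± 0.06).

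**Figure D5:**
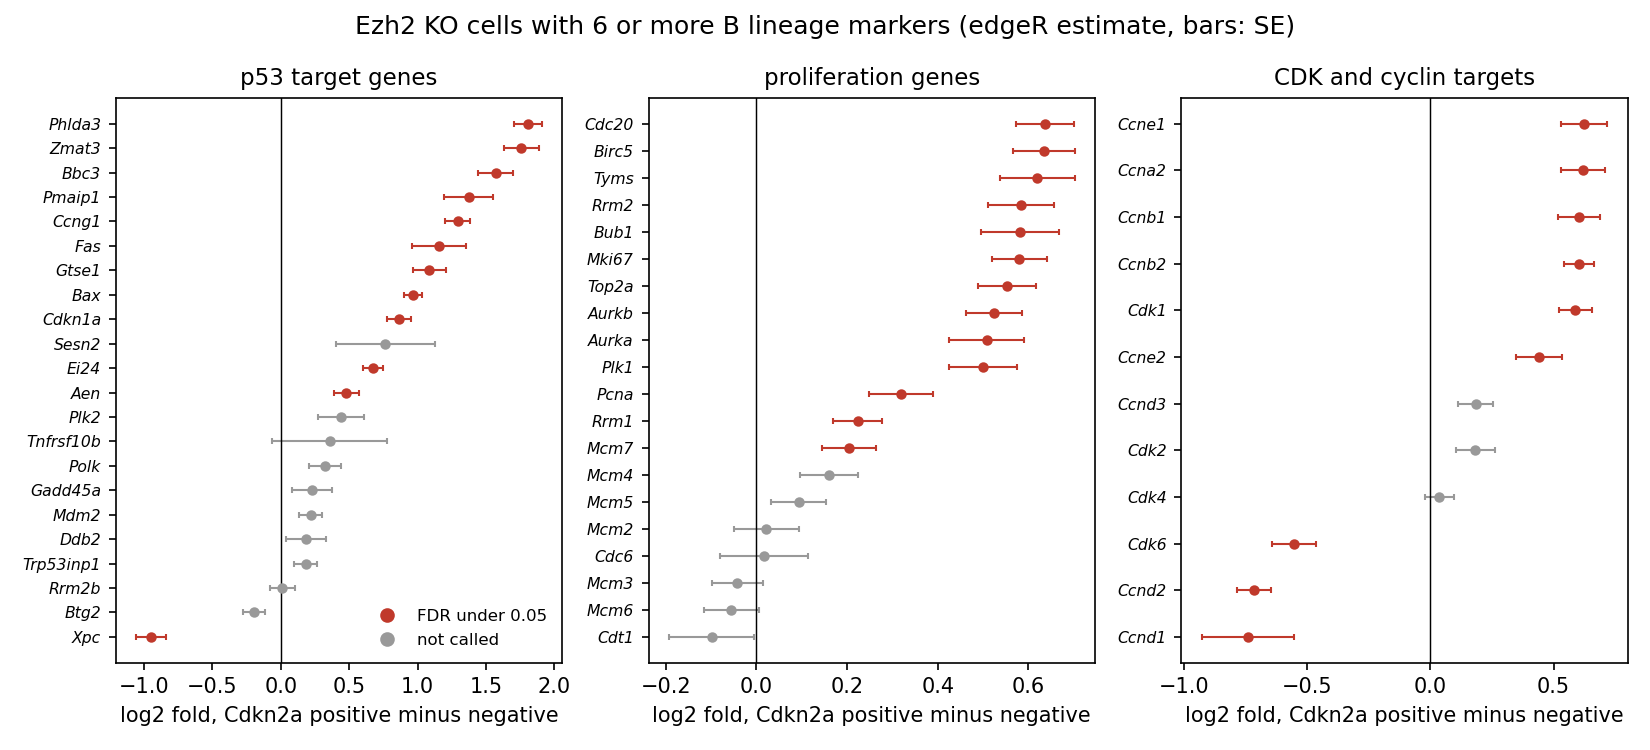
Log2 difference between Cdkn2a positive and negative Ezh2 KO cells with 6 or more B lineage markers (edgeR estimates with standard errors, 4 libraries) for p53 targets, proliferation genes and CDK and cyclin genes. Red points were called at an adjusted p under 0.05. Phlda3 (1.81), Zmat3 (1.76) and Bbc3 (1.57) lead the p53 targets, and Ccnd1, Ccnd2 and Cdk6 lie below 0.

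Among genes known to regulate the locus, 29 of a list of 31 were tested in the same cells, of which 4 were higher and 2 lower in positive cells, a share near the 19.4% of all genes called in this split. Bmi1, a Polycomb repressor of Cdkn2a, was higher (0.44 ± 0.09), as was Id1 (1.37 ± 0.14), while Zbtb7a (-0.40 ± 0.08) and Kdm6b, an H3K27 demethylase (-0.59 ± 0.15), were lower. Bmi1 also rose in whole Ezh2 KO libraries, from 18.9 and 18.7 to 32.6 and 32.4 CPM at baseline (0.83 ± 0.05, adjusted p = 0.0112) and from 16.9 to 50.1 and 46.6 CPM after transplantation (1.44 ± 0.14, adjusted p = 0.00424). Of the neighbouring genes, Mtap was lower in positive cells (-0.29 ± 0.09, adjusted p = 0.0292). In the transplant libraries alone its difference was 0.11 ± 0.14 in lymphoid primed-like cells and 0.028 ± 0.11 over all kept cells, neither called. The lncRNA rows Gm12610 and Gm12609, named after their values had been seen, were higher in positive baseline cells (2.01 ± 0.38 and 2.31 ± 0.54). They had no UMI in either the positive or the negative cells of the transplant Ezh2 KO libraries. The Cell Ranger version differed between the experiments, so this absence is not read as silence of these genes.

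Among genes with a mean of at least 10 CPM, those that differed most within B lineage cells were Serpine2, a protease inhibitor (2.60 ± 0.13), Crabp1, which binds retinoic acid (2.42 ± 0.18), Phlda3, Clic6 (1.78 ± 0.16) and Zmat3 among those higher. Those lower were led, after Jchain and Cd74, by H2-Eb1 (-3.22 ± 0.27), Il18r1 (-3.12 ± 0.27) and Cox6a2 (-3.10 ± 0.33). Flt3, a receptor of early lymphoid progenitors (-2.27 ± 0.14), and Rag1, a recombinase gene (-0.66 ± 0.10), were lower as well, while Cd79a (0.45 ± 0.10), Cd79b, Igll1 and Vpreb3 (0.51 ± 0.12) were higher. Of 13 B lineage markers 8 were higher and 1, Rag1, lower, and of 12 lymphoid primed markers, which include Rag1 and Flt3, 8 were lower, where 19.4% of all genes were called. Within the baseline B lineage-like class, where 13% of genes were called, 1 of the 13 B lineage markers was higher and 4 were lower in the positive cells, with a median of -0.026 against -0.0039 over all genes.

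Surface protein was counted in the baseline cells. On the centred log ratio scale over 6 antibodies, positive Ezh2 KO cells showed less CD117 (c-Kit) than negative cells, by -0.42 and -0.38 in the 2 libraries, less CD135 (Flt3), by -0.80 and -0.70, and more CD48, by 0.70 and 0.82. CD150 differed by 0.43 and 0.25, CD201 by -0.09 and -0.21 and Sca1 by 0.19 and 0.22. Median Sca1 counts were 366 against 358 in replicate 1 but 393 against 431 in replicate 2. Within the B lineage-like class these differences were small: 0.06 and 0.08 for CD117, -0.15 and -0.08 for CD135, and -0.07 and -0.04 for CD48. With 2 libraries no test was made.

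Across the 11 libraries, the genes whose levels were most like that of Cdkn2a were Phlda3 (Pearson r = 0.99 of log2(CPM + 1) after each experiment's mean was subtracted), Sorcs2 (0.98), Ppm1e (0.97), Uchl1 (0.97) and Cwc15 (0.97) of 9776 genes ranked. Phlda3 stood at 10.5, 10.7, 9.08 and 8.67 CPM in the Ezh2 KO libraries and at 3.99 to 5.49 CPM in the others. Of the other inhibitors, r was 0.86 for Cdkn2d, 0.84 for Cdkn1a, 0.44 for Cdkn2c, 0.38 for Cdkn1c and -0.14 for Cdkn1b. These are descriptions over libraries that fall into 2 levels of Cdkn2a and 2 experiments, with no test.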

How the data were processed

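Raw UMI counts per gene and cell were deposited by the authors as filtered 10x matrices (mm10), unnormalized. The submitters' processing notes name Cell Ranger 3.1.0, Seurat 3.0 and Partek, whereas per the file headers Cell Ranger was 7.2.0 (baseline) and 6.1.2 (transplant). CUT&Tag files of the series are not analysed here. Cells were kept with at least 1000 UMIs, 500 genes and at most 10% mitochondrial UMIs. Doublets were scored by Scrublet (scanpy 1.11.5) per library and the top-scoring cells removed, 0.8% per 1000 barcodes, because the automatic threshold marked 0 to 176 cells. Counts were summed per library, or per library and class or split, and tested with edgeR 4.0.16 (quasi-likelihood, TMM, filterByExpr, Benjamini-Hochberg over all genes tested, 0.05), with a sex term at baseline. SE is the log2 fold change over the square root of F. DESeq2 1.42.0, other filters and left-out libraries were alternatives. Tests were also run on simulated data, with the same dispersion for every gene and changes only in genes with higher counts. That check does not cover genes near 0, such as Cdkn2b or Cdkn2a in the transplant Control.

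Clusters of Control cells (Leiden, resolution 1) were named from marker lists, with a rule on leading genes that go against a name added after seeing the data. Antibody counts were centred as a log ratio over 6 antibodies; promoters are RefSeq's (GRCm38.p6).

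The members and lists were chosen with earlier results of these data known. Named genes are the 7 members and, from each list, up to 5 called genes by fold with a mean of at least 5 CPM. In the split by Cdkn2a they are up to 10 each way with a mean of at least 10 CPM. The labels do not say that transplant replicates came from separate mice, so p-values measure the spread between libraries. Intervals and floors (3 counts) cover counting error only. Some genes of the lists are not reported here by name.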

Additional observations from a re-analysis of the deposited data

Results flagged for a closer look

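The difference between Jarid2 KO and Ezh2 KO was itself different after transplantation and at baseline for 3 of the 7 genes (edgeR, interaction term, log2 scale, after transplantation minus baseline), where 2.46% of 18938 genes were called. The value was 1.36 for Cdkn2c (adjusted p = 0.0171), 1.58 for Cdkn1a (0.0149) and -1.53 for Cdkn1c (0.0493). The Cdkn1c call was lost with RLE size factors (adjusted p = 0.0545), the 10 CPM filter (0.0733), the strict cell filter (0.0894) and doublets kept (0.0512). With 1 library left out, 0 to 3 of the 7 genes were called: Cdkn1c was lost without any 1 knockout library, Cdkn2c without any 1 of 4 and Cdkn1a without any 1 of 5. The Jarid2 KO to Ezh2 KO levels behind them were 21.6 ± 0.10 and 38.6 ± 3.5 CPM (SD, n = 2 each) at baseline against 31.4 ± 7.6 and 22.5 ± 3.5 CPM after transplantation for Cdkn2c, and 15.5 ± 3.4 and 13.0 ± 1.9 CPM against 4.16 ± 0.68 and 10.4 ± 0.38 CPM for Cdkn1c.

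The fitted difference between Cdkn2a positive and negative Ezh2 KO cells, all kept cells included, was smaller after transplantation than at baseline for 4 genes. This was by the same kind of test, on sums scaled by TMM, in which 18.8% of genes were called. The value was -0.50 for Cdkn2c (adjusted p = 0.00394), -0.58 for Cdkn2d (0.000283), -0.78 for Cdkn1a (0.0176) and -0.56 for Cdkn1b (0.000909). All 4 were higher in positive cells in each of the 4 libraries. In CPM, Cdkn2c stood at 123 and 110 in positive against 35.3 and 32.1 in negative cells at baseline. After transplantation it stood at 72.3 and 66.5 against 23.5 and 19.1 CPM. Without the scaling of the fit, the ratios of Cdkn2c, and those of Cdkn1a, thus overlapped between the experiments. Among cells with 6 or more B lineage markers the CPM ratios of Cdkn2c and Cdkn2d were larger in both transplant libraries than in both baseline ones, which was not tested. There Cdkn2c stood at 126 and 112 CPM in positive against 76.9 and 80.7 CPM in negative cells at baseline, and at 86.8 and 83.3 against 45.6 and 30.4 CPM after transplantation. Cdkn2d stood at 228 and 209 against 132 and 148 CPM at baseline, and at 170 and 217 against 84.6 and 76.6 CPM after transplantation. Within classes, the log2 difference for Cdkn2c was 0.52 in baseline B lineage-like and 2.13 in transplant lymphoid primed-like cells.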

How the results depend on the processing

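Cdkn2a was called in baseline Ezh2 KO under every alternative that tested it, and the number of the 7 genes called there, 5, was 3 with a mean of at least 10 CPM (a filter that removes Cdkn2a and Cdkn2b from the test), 1 with no sex term, and 2 to 5 with 1 library left out. For Jarid2 KO against Ezh2 KO at baseline it was 3 with the 10 CPM filter and 1 to 5 with 1 library left out. After transplantation the 2 called for Ezh2 KO became 0 with the 10 CPM filter, 1 with the strict cell filter, 0 with male cells only and 1 to 2 with 1 library left out, and the 2 called for Jarid2 KO against Ezh2 KO became 4 with no low-count filter, 0 with the 10 CPM filter and 2 to 3 with 1 library left out. The only transplant Control library could be left out for Jarid2 KO against Ezh2 KO alone, not for the contrasts with Control or the interactions. The 3 called for the interaction of Jarid2 KO against Ezh2 KO ranged from 0 to 3 with 1 library left out; the 0 called for that of Ezh2 KO became 1 with DESeq2 and 1 with no low-count filter, and stayed at 0 with 1 library left out.

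Counts over all genes moved more. At baseline the 630 genes called for Ezh2 KO against Control were 1341 with DESeq2, 1004 with no low-count filter, 387 with the 10 CPM filter, 23 with no sex term, 406 with only the groups compared and 100 to 560 with 1 library left out. The 6 for Jarid2 KO were 251 with DESeq2, 3 with RLE size factors, 52 with no low-count filter, 1 with no sex term and 2 to 41 with 1 library left out, and the 1075 between the knockouts were 80 with no sex term and 43 to 1168 with 1 left out. After transplantation the 763 for Ezh2 KO were 1170 with no filter, 162 with the 10 CPM filter, 433 with the strict filter, 319 with male cells only and 467 to 1068 with 1 left out. The 53 for Jarid2 KO were 196 with DESeq2, 209 with no filter, 11 with the 10 CPM filter, 29 with the strict filter, 7 with male cells only and 62 to 134 with 1 left out. The 1897 between the knockouts were 434 with the 10 CPM filter, 1220 with male cells only and 1049 to 1953 with 1 left out. For the interactions, the 66 of Ezh2 KO were 271 with DESeq2, 125 with no filter, 35 with the 10 CPM filter, 38 with the strict filter, 139 with a sex term for baseline and 15 to 74 with 1 left out. The 0 of Jarid2 KO were 51, 11 and 4 with DESeq2, no filter and the sex term, and 0 to 2 with 1 left out. The 465 between the knockouts were 911 with DESeq2, 160 with the 10 CPM filter, 250 with the strict filter, 878 with the sex term and 133 to 509 with 1 left out. The causes were not tested.

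The 7352 genes called between Cdkn2a positive and negative cells were 2355 among cells with at least 6 B lineage markers, 1584 in baseline B lineage-like cells, 5074 in transplant lymphoid primed-like cells, 4 in the joint fit of those classes (with 0 of the 6 other inhibitors) and 5148 to 7005 with 1 library left out (6 of 6 inhibitors each time). Calls in some classes depended on the clustering run, whereas the 5 inhibitor calls for Ezh2 KO in the baseline B lineage-like class held. The estimates of that class were identical at the lower resolution and with another seed, so those runs repeated the same test. With that other seed, chosen as an alternative after seeing the data, 2 inhibitors were called in transplant lymphoid primed-like cells, where Cdkn1a (adjusted p = 0.0444) took the place of Cdkn1c. At a higher resolution Cdkn2d was called there as well (adjusted p = 0.0276). The share of Cdkn2a positive cells, averaged over Ezh2 KO libraries, was 3.35% and 2.14% at baseline with cells thinned to 5000 and 2500 UMIs, and 1.63% and 0.912% after transplantation.

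Some differences changed sign. For Cdkn1b, baseline Ezh2 KO minus Control was -0.0032 with all deposited barcodes, -0.0069 with doublets kept and -0.0061 to 0.029 with 1 library left out, and Jarid2 KO minus Control was -0.010 to 0.024 with 1 left out. After transplantation Cdkn1b ran from -0.18 to 0.039 (Ezh2 KO) and from -0.034 to 0.13 (Jarid2 KO) with 1 left out. For Cdkn1c, baseline Ezh2 KO minus Control ran from -0.042 to 0.31, and for Cdkn2d Jarid2 KO minus Control ran from -0.17 to 0.0044, with 1 left out. For Cdkn2c, transplant Jarid2 KO minus Control was 0.00061 with no filter, 0.014 with all barcodes, 0.23 with male cells only and -0.19 to 0.16 with 1 left out, and in lymphoid primed-like cells Ezh2 KO minus Control was -0.11 at a lower resolution and -0.033 with the other seed, and Jarid2 KO minus Control -0.022 and -0.015. In the split by Cdkn2a, large differences called over all kept cells turned within baseline B lineage-like cells: Car1 from -4.43 to 0.0034, Wfdc17 from -4.13 to 0.44, Ccser1 from -3.45 to 1.42 (0.34 in the joint fit), Ets1 from 2.18 to -0.13, Ccnd3 from 1.65 to -0.053, Smarca4 from 1.64 to -0.079 and Cbx2 from 1.09 to -0.070. Mtap turned from -0.39 to 0.11 in transplant lymphoid primed-like cells and 0.028 in the transplant libraries alone.

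The replicate numbers did not pair the transplant libraries (correlation of deviations -0.012 over 8625 genes, 2 pairs). With the replicate block, Jarid2 KO minus Ezh2 KO was -6.79 for Cdkn2a and -1.31 for Cdkn1c, both called, among 2 inhibitors and 1506 genes called.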
